A study of Mus musculus with 9 samples.

Results

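A panel of 53 cell cycle and DNA replication genes was followed across 3 dendritic cell populations sorted from the mouse thymus. Its members were taken by symbol from the deposited count table, where all 53 were found among 55278 gene symbols. The populations are named CD301b, SIRPa and XCR1, with 3 RNA-seq libraries each. All came from C57BL/6 mice that, per the design text, were 8 weeks old and numbered 3, with no mutation or treatment stated for any population. CD301b is a C-type lectin encoded by Mgl2, SIRPα is a receptor carried by type 2 conventional dendritic cells (cDC2), and XCR1, a chemokine receptor, marks their type 1 counterparts (cDC1). The labels name the cell type as thymic dendritic cells but the source as thymocytes, a dividing population, and the cell type is followed here. The study set these thymic cells in the context of type 2 cytokine signals. The labels do not say how the CD301b gate relates to the SIRPa gate, how many cells were sorted or whether animals were pooled.

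Conventional dendritic cells arise from bone marrow precursors, and many divide further once they are in a tissue, so a sorted population can hold both resting and cycling cells. In a cycling cell, cyclin D and cyclin E kinases release E2F factors from the retinoblastoma protein, E2F switches on the replication genes of S phase, and a later wave of genes for cyclin B, kinetochores, motors and the anaphase-promoting complex drives mitosis. The later wave is read largely from promoters with a cell cycle homology region (CHR), which the DREAM and MuvB complexes bind, together with CCAAT boxes bound by NF-Y.

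The promoters of 6 members carry these letters and are shown because they stand for both waves. Of the 53 members, 44 had a promoter entry in RefSeq (GRCm38.p6), with 49 windows of 300 bases, from 250 bases before the transcription start to 50 after it. CHR letters were searched as TTTGAA or TTTAAA, NF-Y letters as CCAAT and E2F letters as TTTGGCGC, TTTCCCGC, TTTGCCGC or TTTCGCGC, all on both strands. CHR matches stood in 21 of 24 windows of mitotic members (87.5%), in 6 of 15 of replication and nucleotide synthesis members (40%) and in 1 of 10 of G1 and inhibitor members (10%), against 27.6% of all 32851 windows. CCAAT stood in 75%, 86.7% and 30% of the same windows, against 37.4% of all. E2F letters stood in 2 of 24 mitotic (8.33%), 6 of 15 replication (40%) and 1 of 10 G1 windows (10%), against 2.26% of all. A match describes letters in the window and is not evidence of binding. In the lines for Cdk1, Kif23, Ccnb2 and Cenpe, capitals mark CHR and CCAAT matches on either strand. In those for Mcm5 and Mcm6 they mark E2F matches, of which some overlap and run together. Other matches stay in lower case: Mcm5 also has 1 CHR and 3 CCAAT, Mcm6 has 2 CCAAT and Cdk1 has 1 E2F match.
Cdk1 (chr10:69352863-69353162, minus strand): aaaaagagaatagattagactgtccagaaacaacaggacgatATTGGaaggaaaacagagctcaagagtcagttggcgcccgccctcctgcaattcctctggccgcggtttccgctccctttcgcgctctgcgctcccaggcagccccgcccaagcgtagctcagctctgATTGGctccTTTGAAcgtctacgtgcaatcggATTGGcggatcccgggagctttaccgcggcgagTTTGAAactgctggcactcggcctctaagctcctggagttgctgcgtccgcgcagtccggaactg
Kif23 (chr9:61946750-61947049, minus strand): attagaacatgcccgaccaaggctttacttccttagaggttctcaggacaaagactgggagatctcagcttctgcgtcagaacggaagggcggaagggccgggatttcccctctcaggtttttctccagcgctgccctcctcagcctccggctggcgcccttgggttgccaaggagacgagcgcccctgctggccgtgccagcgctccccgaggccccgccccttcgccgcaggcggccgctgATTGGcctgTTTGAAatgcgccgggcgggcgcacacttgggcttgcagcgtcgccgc
Ccnb2 (chr9:70421505-70421804, minus strand): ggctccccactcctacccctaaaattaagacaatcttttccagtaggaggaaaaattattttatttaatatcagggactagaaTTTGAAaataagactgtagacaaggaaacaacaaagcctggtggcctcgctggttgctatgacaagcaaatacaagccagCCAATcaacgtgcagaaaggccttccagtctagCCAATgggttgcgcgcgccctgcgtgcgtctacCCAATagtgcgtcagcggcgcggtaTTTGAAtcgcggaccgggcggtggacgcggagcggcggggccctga
Cenpe (chr3:135212313-135212612, plus strand): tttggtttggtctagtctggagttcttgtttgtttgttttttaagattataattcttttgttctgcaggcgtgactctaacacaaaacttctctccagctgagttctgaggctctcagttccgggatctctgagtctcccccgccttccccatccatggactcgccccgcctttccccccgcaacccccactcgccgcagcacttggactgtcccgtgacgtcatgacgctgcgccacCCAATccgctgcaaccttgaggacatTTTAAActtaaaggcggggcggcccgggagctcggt
Mcm5 (chr8:75109259-75109558, plus strand): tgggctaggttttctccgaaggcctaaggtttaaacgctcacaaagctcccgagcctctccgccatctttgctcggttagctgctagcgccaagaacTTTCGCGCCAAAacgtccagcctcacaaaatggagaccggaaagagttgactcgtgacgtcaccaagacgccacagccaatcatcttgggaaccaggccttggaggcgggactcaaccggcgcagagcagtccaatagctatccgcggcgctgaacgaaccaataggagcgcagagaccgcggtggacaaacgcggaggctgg
Mcm6 (chr1:128359656-128359955, minus strand): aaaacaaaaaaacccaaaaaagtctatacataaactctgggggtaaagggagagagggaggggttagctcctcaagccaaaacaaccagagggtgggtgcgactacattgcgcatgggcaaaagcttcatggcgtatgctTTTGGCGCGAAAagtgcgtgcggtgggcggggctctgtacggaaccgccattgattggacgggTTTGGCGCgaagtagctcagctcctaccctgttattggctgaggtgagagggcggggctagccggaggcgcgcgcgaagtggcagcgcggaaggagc
The Kif23 and Ccnb2 windows each have a TTTGAA within 4 bases after the start and a CCAAT letter group shortly before it. The Cdk1 window has TTTGAA at 71 and 15 bases before the start. Cenpe, the mitotic member that also differed between CD301b and SIRPa, has TTTAAA in place of TTTGAA.

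Libraries held 20246092 to 25438864 counts in all. Levels are CPM, read counts divided by a library size scaled with the TMM method, and the members together made up 62538 to 118625 counts of a library, with at least 114 counts for every member in every library. The cDC1 and cDC2 markers, which include the label genes Xcr1, Sirpa and Mgl2, followed the labels. All 10 cDC1 markers were lower in CD301b and in SIRPa than in XCR1. Of 10 cDC2 markers, 9 were higher in each, the exception being Clec12a. All 5 markers shared by dendritic cells were higher in CD301b than in SIRPa. Against XCR1, 2 of them were higher and 1 lower in CD301b, and 1 was higher and 3 lower in SIRPa. Of 6 B cell markers tested, 4 were higher in SIRPa than in XCR1, while 1 was higher and 2 lower in CD301b. Thymocytes, many of which divide, are the neighbours of these cells. The 13 thymocyte markers summed to 246 to 606 in CD301b, 355 to 640 in SIRPa and 179 to 780 CPM in XCR1, none of the 12 that could be tested was called in any comparison by edgeR (0 at an unadjusted p under 0.05), and Ptcra was at 0 in 5 libraries. XCR1 replicate 3 had the highest sum, 780 CPM, while XCR1 replicates 1 and 2, at 222 and 179 CPM, had the lowest of all 9. The 9 macrophage markers summed to 1418 to 1663 in CD301b, 2351 to 2736 in SIRPa and 90.7 to 113 CPM in XCR1. All 9 were higher in both SIRPa and CD301b than in XCR1. The 10 cDC2 markers summed to 2638 to 3052 in CD301b, 2028 to 2190 in SIRPa and 170 to 173 CPM in XCR1. The 9 markers of mature dendritic cells summed to 3163 to 3456 in CD301b, 3476 to 3580 in SIRPa and 2435 to 3164 CPM in XCR1. Against XCR1, 4 of them were higher and 2 lower in CD301b, and 5 were higher and 0 lower in SIRPa. In CD301b against SIRPa, 0 were higher and 2 lower. The part of these other cells and states in the differences between populations was not tested.

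Most cell cycle genes were lower in CD301b and in SIRPa than in XCR1, while Ccnd2 was higher in both. Ccnd1, Ccnd3 and the inhibitor Cdkn1a were higher in CD301b than in XCR1. Of these, only Ccnd3 was also called against SIRPa by edgeR, and the Ccnd1 call held in 8 of 19 alternative fits. Summed over the 53 members, levels were 3703, 3743 and 3802 CPM in CD301b replicates 1, 3 and 4, 2957, 3461 and 3352 CPM in SIRPa replicates 1 to 3, and 5190, 4758 and 5715 CPM in XCR1 replicates 1 to 3. No CD301b or SIRPa library reached the lowest XCR1 library. XCR1 replicate 3, which had the highest thymocyte marker sum, also had the highest member sum, and XCR1 replicates 1 and 2, which had the lowest thymocyte marker sums, had the next highest member sums. The part of thymocyte RNA in these sums was not tested. In bulk RNA, a higher share of cycling cells and more transcript per cycling cell cannot be told apart.

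**Figure D1:**
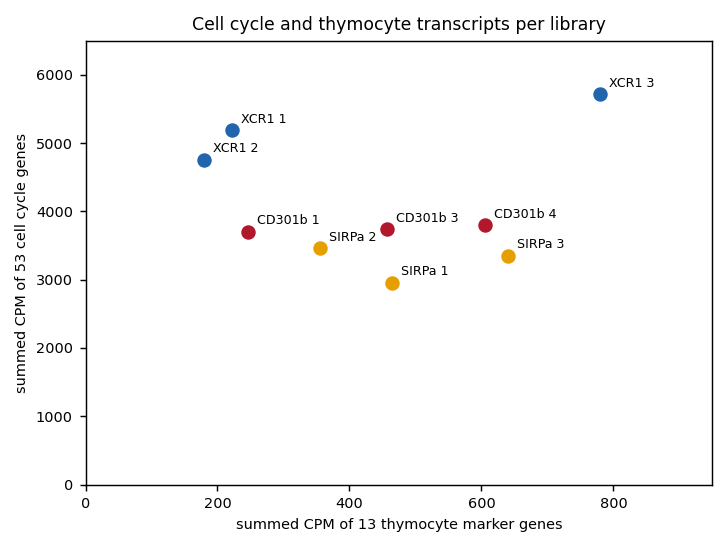
Summed CPM of the 53 cell cycle genes (y axis) against summed CPM of 13 thymocyte markers (x axis), 1 point per library, coloured by population. XCR1 replicates 1 and 2 lie at 222 and 179 CPM of thymocyte markers and at or above 4758 CPM of cell cycle genes, while every CD301b and SIRPa library lies at or below 3802 CPM of cell cycle genes.

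In CD301b against XCR1, 31 of 53 members were lower, 4 were higher and 18 did not pass the test (edgeR quasi-likelihood, adjusted p under 0.05). Across all 15417 genes tested, 9.12% were lower and 13.5% higher in CD301b. The median log2 fold change of the members was -0.62, against 0.05 for all genes tested. In 40 members every CD301b library was below every XCR1 library, which held for 15.4% of all genes. The count of lower members was 19 without XCR1 replicate 3, the library with the highest thymocyte marker sum, where the median was -0.54.

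In SIRPa against XCR1, 39 of 53 members were lower, 1 was higher and 13 did not pass. Of all genes tested, 10.7% were lower and 13.9% higher in SIRPa. The members' median log2 fold change was -0.80, against 0.06 for all genes tested, and in 43 members every SIRPa library was below every XCR1 library, which held for 18.1% of all genes. Leaving out any 1 library left 34 to 39 lower members, with 34 without XCR1 replicate 3 or SIRPa replicate 1. Both comparisons use the same XCR1 libraries, so their values are given side by side and not as separate support. With library totals as the only scaling, the median of all genes moved to 0.13 and that of the members to -0.73.

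In CD301b against SIRPa, 2 of 53 members were higher and 0 lower by edgeR, where 2.2% of all genes tested were higher and 2.08% lower in CD301b. At an unadjusted p under 0.05, the count was 9 of 53 members, all higher in CD301b, against 14.4% of all genes in either direction. DESeq2 called 2 higher and limma-voom 3, and neither called a lower one. A member that passed against XCR1 in 1 of these populations and not in the other is thereby not shown to differ between them, since that difference is this comparison, which Ccnd3 and Cenpe alone passed by edgeR. The median log2 fold change was 0.20, against 0.01 for all genes. With library totals as the only scaling, all genes called split into 268 higher and 392 lower, against 339 and 321 with TMM.

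**Figure D2:**
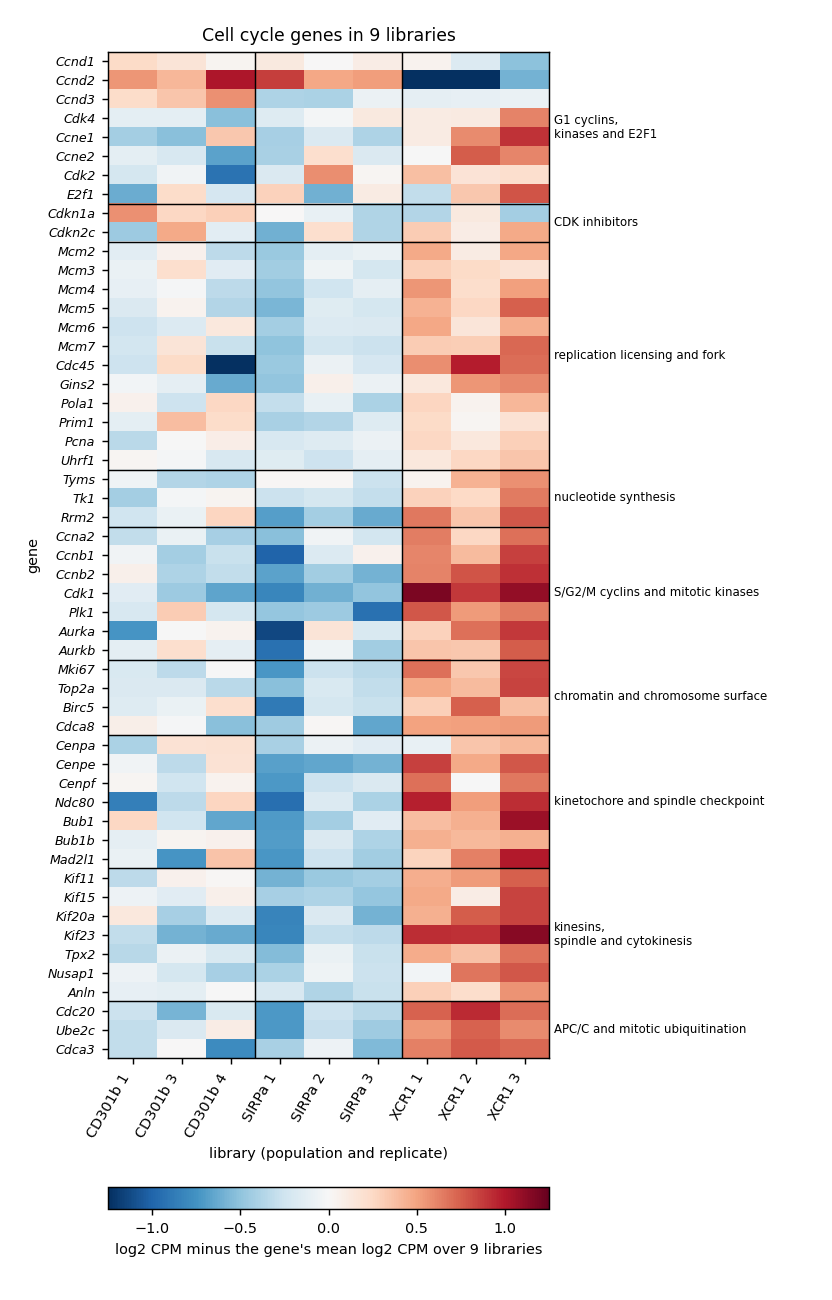
Level of each member in each library as log2 CPM minus the gene's mean log2 CPM over the 9 libraries (colour), with genes grouped by role and populations divided by vertical lines. The 3 XCR1 columns are red for most rows from Mcm2 down, and the Ccnd2 row is blue there.

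The MCM2 to MCM7 proteins form the ring-shaped helicase that is loaded at origins and unwinds DNA in S phase. All 6 genes were lower in SIRPa than in XCR1, and 5 of 6 were lower in CD301b than in XCR1. For this and each later role group, the shares of all genes lower were 10.7% in SIRPa and 9.12% in CD301b. Mcm4 had 101, 107 and 86.4 CPM in CD301b, 77.0, 90.8 and 99.9 CPM in SIRPa and 159, 126 and 155 CPM in XCR1 libraries. Mcm5 had 71.3, 83.0 and 62.6 CPM in CD301b, 54.5, 72.7 and 69.6 CPM in SIRPa and 109, 96.8 and 136 CPM in XCR1 libraries. Mcm7 had 76.4, 100.4 and 74.0 CPM in CD301b, 63.2, 76.7 and 74.4 CPM in SIRPa and 112, 111 and 148 CPM in XCR1 libraries. In these 3 genes no CD301b or SIRPa library reached the lowest XCR1 library. Mcm2 had 85.2, 96.7 and 74.4 CPM in CD301b, 67.5, 85.9 and 87.8 CPM in SIRPa and 129.7, 100.3 and 131 CPM in XCR1 libraries. Mcm6 had 141, 149.7 and 184 CPM in CD301b, 125, 149.7 and 149 CPM in SIRPa and 236, 187 and 231 CPM in XCR1 libraries. In both genes every XCR1 library lay above every other library, while CD301b and SIRPa overlapped. The gap was narrowest for Mcm6, between CD301b replicate 4 and XCR1 replicate 2. Mcm3 had 166, 203 and 159.6 CPM in CD301b, 129.6, 169 and 150.3 CPM in SIRPa and 216, 208 and 199 CPM in XCR1 libraries. CD301b replicate 3 lay inside the XCR1 range, and its call in CD301b against XCR1 was not made, at -0.24 ± 0.12 (adjusted p = 0.182). Libraries that a repeated fit left out are named by population and replicate, such as XCR1 3. The log2 fold change of Mcm5 was -0.65 ± 0.15 (adjusted p = 0.00326) in CD301b against XCR1 and -0.79 ± 0.15 (adjusted p = 0.000511) in SIRPa against XCR1. For Mcm4 it was -0.58 ± 0.13 (adjusted p = 0.00264) and -0.71 ± 0.13 (adjusted p = 0.000338) in the same order, and for Mcm7 -0.56 ± 0.15 (adjusted p = 0.00756) and -0.79 ± 0.15 (adjusted p = 0.000362). Mcm2 had -0.49 ± 0.14 (adjusted p = 0.0158) and -0.58 ± 0.14 (adjusted p = 0.00456), and Mcm6 -0.46 ± 0.13 (adjusted p = 0.0104) and -0.62 ± 0.13 (adjusted p = 0.000771). Mcm3 in SIRPa against XCR1 had -0.47 ± 0.12 (adjusted p = 0.00565). In CD301b against XCR1, the call was lost for Mcm2 after removal of CD301b 4 or XCR1 1 or 3 (adjusted p = 0.0554 to 0.0710), for Mcm6 after removal of XCR1 1 (adjusted p = 0.0550) and for Mcm7 after removal of XCR1 3 (adjusted p = 0.0623).

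Of the 6 other members of the replication fork, 1 was lower in CD301b than in XCR1 and 4 were lower in SIRPa than in XCR1. Cdc45, which joins MCM in the active helicase, had 13.2, 18.6 and 5.57 CPM in CD301b, 11.4, 15.0 and 13.7 CPM in SIRPa and 23.6, 31.0 and 25.5 CPM in XCR1 libraries. All 3 XCR1 libraries lay above the others, and CD301b replicate 4 was far below its companions. For Cdc45 the log2 fold change was -1.10 ± 0.32 (adjusted p = 0.0157) in CD301b and -1.0 ± 0.32 (adjusted p = 0.0250) in SIRPa, each against XCR1. Pcna, the sliding clamp of DNA polymerases, had 88.4, 112 and 118 CPM in CD301b, 97.3, 99.9 and 106 CPM in SIRPa and 134, 122 and 138 CPM in XCR1 libraries. Uhrf1, which brings the maintenance methyltransferase to newly copied DNA, had 123, 119 and 106 CPM in CD301b, 109.8, 101 and 112 CPM in SIRPa and 133, 145 and 155 CPM in XCR1 libraries. Pola1, the catalytic subunit of the polymerase that makes primers, had 56.2, 45.3 and 64.9 CPM in CD301b, 44.2, 51.0 and 41.1 CPM in SIRPa and 65.2, 55.9 and 72.3 CPM in XCR1 libraries. These 3 were called in SIRPa against XCR1, at -0.38 ± 0.12 (adjusted p = 0.0289), -0.42 ± 0.11 (adjusted p = 0.00907) and -0.51 ± 0.16 (adjusted p = 0.0261), with -0.31 ± 0.12 (adjusted p = 0.0822), -0.31 ± 0.11 (adjusted p = 0.0542) and -0.22 ± 0.16 (adjusted p = 0.399) in CD301b against XCR1, where Uhrf1 passed in 6 of 19 alternatives, Pcna in 3 and Pola1 in 0. Gins2, a subunit of the same helicase, and Prim1, the primase, were called in no comparison, with averages of 9.82 ± 2.05, 10.4 ± 1.99 and 15.8 ± 2.66 CPM for Gins2 and 15.7 ± 2.71, 11.2 ± 1.07 and 15.4 ± 1.15 CPM for Prim1 in CD301b, SIRPa and XCR1 (SD, n = 3 each). Of the exon bases of Gins2, 67.3% lie opposite Gse1, so its counts are uncertain. The call of Cdc45 was lost in CD301b after removal of XCR1 2 (adjusted p = 0.0634) and in SIRPa after removal of SIRPa 1 or 3 or XCR1 2 (adjusted p = 0.0695 to 0.103). In SIRPa against XCR1, that of Pcna was lost after removal of SIRPa 1 or 2 or XCR1 1 or 3 or with library totals as the only scaling (adjusted p = 0.0756 to 0.0882) and that of Pola1 after removal of SIRPa 1 or 3 or XCR1 1 or 3 or with library totals as the only scaling (adjusted p = 0.0644 to 0.109).

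Among enzymes that supply nucleotides, Rrm2, the regulated subunit of ribonucleotide reductase, differed most. It had 35.9, 40.2 and 51.5 CPM in CD301b, 26.5, 31.9 and 27.6 CPM in SIRPa and 67.5, 54.3 and 73.1 CPM in XCR1 libraries. The 3 populations did not overlap: SIRPa was lowest, CD301b in between and XCR1 highest. Its log2 fold change was -1.18 ± 0.17 (adjusted p = 2.58e-05) in SIRPa against XCR1, -0.61 ± 0.17 (adjusted p = 0.0126) in CD301b against XCR1 and 0.57 ± 0.17 (adjusted p = 0.0743) in CD301b against SIRPa. Tk1, thymidine kinase, had 15.4, 20.3 and 21.2 CPM in CD301b, 17.2, 17.7 and 16.8 CPM in SIRPa and 25.3, 24.6 and 32.4 CPM in XCR1 libraries, and was lower in SIRPa than in XCR1 by the test, at -0.67 ± 0.22 (adjusted p = 0.0281), with -0.53 ± 0.22 (adjusted p = 0.0883) in CD301b. Tyms, thymidylate synthase, averaged 15.9 ± 2.11, 18.1 ± 1.97 and 24.5 ± 4.39 CPM in CD301b, SIRPa and XCR1 (SD, n = 3 each) and passed in no comparison by edgeR with TMM on all libraries. In CD301b against XCR1 it passed in 6 of 19 alternatives, DESeq2 among them, with an adjusted p down to 0.0351. The call of Rrm2 in CD301b against XCR1 was lost after removal of CD301b 1 or XCR1 3 (adjusted p = 0.0635 to 0.0649), and that of Tk1 in SIRPa against XCR1 after removal of SIRPa 1, 2 or 3 or XCR1 3 or with library totals as the only scaling (adjusted p = 0.0556 to 0.136).

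Of 7 cyclins and kinases of S phase and mitosis, 5 were lower in CD301b than in XCR1 and 7 were lower in SIRPa than in XCR1. Cdk1, the kinase that drives entry into mitosis (protein-coding, GRCm38 chromosome 10, 69335146 to 69352938, minus strand), had 27.3, 22.0 and 19.1 CPM in CD301b, 17.1, 19.8 and 21.4 CPM in SIRPa and 67.7, 55.3 and 64.2 CPM in XCR1 libraries. The lowest XCR1 library stood above the highest library of the other populations by a factor of more than 2. Its log2 fold change was -1.45 ± 0.19 (adjusted p = 4.19e-06) in CD301b and -1.68 ± 0.19 (adjusted p = 6.17e-07) in SIRPa, each against XCR1. Ccnb2, a cyclin partner of Cdk1 (protein-coding, GRCm38 chromosome 9, 70407692 to 70421547, minus strand), had 32.4, 23.7 and 24.9 CPM in CD301b, 19.4, 22.9 and 20.5 CPM in SIRPa and 47.6, 53.3 and 58.3 CPM in XCR1 libraries, with -0.97 ± 0.18 (adjusted p = 0.000389) and -1.34 ± 0.18 (adjusted p = 9.89e-06) in the same order. Ccnb1, the other B-type cyclin, had 24.1, 18.5 and 20.4 CPM in CD301b, 12.4, 22.1 and 25.8 CPM in SIRPa and 37.9, 32.7 and 44.9 CPM in XCR1 libraries, with -0.87 ± 0.24 (adjusted p = 0.0112) and -0.94 ± 0.24 (adjusted p = 0.00622). Ccna2, the cyclin of S phase and early mitosis, had 45.2, 52.9 and 42.0 CPM in CD301b, 38.9, 54.2 and 47.8 CPM in SIRPa and 87.3, 67.0 and 90.1 CPM in XCR1 libraries, with -0.80 ± 0.16 (adjusted p = 0.000881) and -0.79 ± 0.16 (adjusted p = 0.000906). In these 4 genes every XCR1 library lay above every other library. The kinase Plk1, which matures centrosomes and kinetochores, had 21.6, 30.9 and 21.3 CPM in CD301b, 17.7, 18.1 and 12.9 CPM in SIRPa and 42.3, 35.8 and 38.9 CPM in XCR1 libraries. Aurka, the spindle pole kinase, had 10.3, 17.2 and 17.6 CPM in CD301b, 7.80, 19.2 and 15.1 CPM in SIRPa and 21, 27.7 and 31.7 CPM in XCR1 libraries, and Aurkb, the kinase of the chromosomal passenger complex, 21.8, 27.4 and 21.9 CPM in CD301b, 12.4, 22.9 and 17.5 CPM in SIRPa and 30.2, 29.9 and 40.2 CPM in XCR1 libraries. SIRPa replicate 1 was the lowest library for both Aurora kinases. For Aurkb, CD301b averaged closer to XCR1 than SIRPa did, but CD301b and SIRPa overlapped, and that comparison did not pass, at 0.43 ± 0.23 (adjusted p = 0.442). All 3 kinases were lower in SIRPa than in XCR1, at -1.26 ± 0.21 (adjusted p = 0.000127) for Plk1, -0.93 ± 0.30 (adjusted p = 0.0271) for Aurka and -0.93 ± 0.23 (adjusted p = 0.00516) for Aurkb. In CD301b against XCR1, Plk1 was lower, at -0.66 ± 0.21 (adjusted p = 0.0267), and Aurka and Aurkb did not pass, at -0.83 ± 0.30 (adjusted p = 0.0518) and -0.50 ± 0.23 (adjusted p = 0.140). There Aurka passed in 12 of 19 alternatives, DESeq2 and limma-voom among them, with an adjusted p of 0.00843 to 0.189, and Aurkb in 0, with 0.0938 to 0.399. In CD301b against XCR1 the call of Ccnb1 was lost after removal of XCR1 3 (adjusted p = 0.0548) and that of Plk1 after removal of CD301b 1 or 4 or XCR1 1 or 3 (adjusted p = 0.0564 to 0.0966). In SIRPa against XCR1 that of Aurka was lost after removal of SIRPa 1 or 3 or XCR1 2 or 3 (adjusted p = 0.0555 to 0.142).

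Mki67 and Top2a are widely used as markers of dividing cells, and all 4 members of this chromosome group were lower in SIRPa than in XCR1, with 3 lower in CD301b. Mki67 encodes a protein that coats mitotic chromosomes. It had 486, 443 and 555 CPM in CD301b, 336, 461 and 441 CPM in SIRPa and 896, 703 and 989 CPM in XCR1 libraries. Top2a, the topoisomerase that untangles copied DNA, had 300.3, 302 and 270.0 CPM in CD301b, 238, 298 and 276 CPM in SIRPa and 474, 450.2 and 613 CPM in XCR1 libraries. Birc5, the passenger subunit survivin, had 29.4, 31.0 and 37.8 CPM in CD301b, 17.7, 28.2 and 27.0 CPM in SIRPa and 40.4, 55.1 and 42.6 CPM in XCR1 libraries. The XCR1 libraries lay above all others in the 3 genes, with the widest gap in Top2a. Cdca8, borealin, a further passenger subunit, had 36.0, 33.7 and 23.8 CPM in CD301b, 25.1, 34.4 and 21.8 CPM in SIRPa and 48.3, 48.6 and 49.3 CPM in XCR1 libraries. The log2 fold change of Mki67 was -0.80 ± 0.14 (adjusted p = 0.000217) in CD301b and -1.06 ± 0.14 (adjusted p = 9.75e-06) in SIRPa, each against XCR1, and that of Top2a -0.82 ± 0.12 (adjusted p = 2.18e-05) and -0.92 ± 0.12 (adjusted p = 4.63e-06). Birc5 had -0.49 ± 0.20 (adjusted p = 0.0916) and -0.92 ± 0.20 (adjusted p = 0.00177), so it passed in SIRPa and not in CD301b, and Cdca8 had -0.65 ± 0.20 (adjusted p = 0.0227) and -0.85 ± 0.20 (adjusted p = 0.00302). In CD301b against SIRPa, Birc5 had 0.43 ± 0.20 (adjusted p = 0.336). The call of Cdca8 in CD301b against XCR1 was lost after removal of CD301b 4 or XCR1 1, 2 or 3 (adjusted p = 0.0514 to 0.0898).

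**Figure D3:**
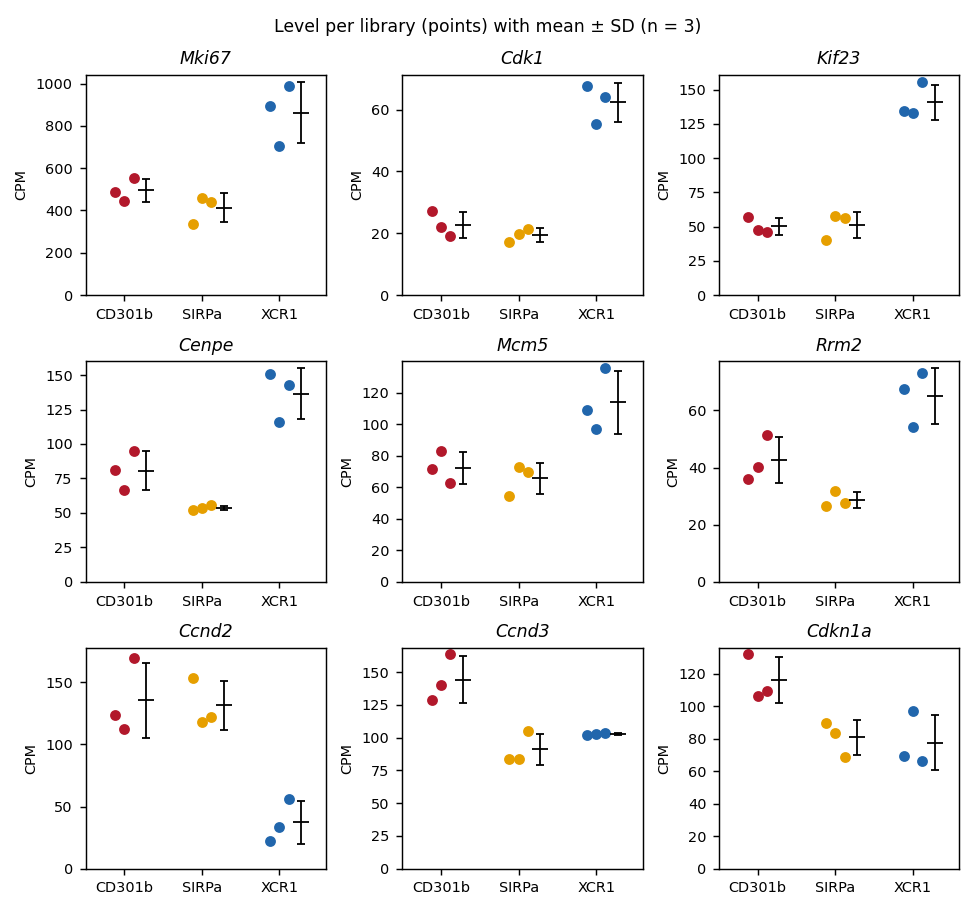
CPM of 9 members in each library (points), with the mean ± SD of 3 libraries beside them, for CD301b, SIRPa and XCR1 from left to right. In Cdk1 and Kif23 all XCR1 points stand above all others, in Ccnd2 all stand below, and Ccnd3 and Cdkn1a are highest in CD301b.

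At the kinetochore, where chromosomes hold the spindle, 6 of 7 members were lower in each comparison with XCR1. Cenpe, a kinesin that carries chromosomes to the spindle equator, had 80.9, 66.4 and 94.7 CPM in CD301b, 52.3, 53.3 and 55.6 CPM in SIRPa and 151, 116 and 143 CPM in XCR1 libraries. Its 3 populations did not overlap, in the order SIRPa, CD301b, XCR1 from low to high, with log2 fold changes of -1.34 ± 0.14 (adjusted p = 3.45e-07) in SIRPa against XCR1 and -0.76 ± 0.14 (adjusted p = 0.000379) in CD301b against XCR1. Ndc80, the microtubule-binding core of the kinetochore, had 15.8, 22.8 and 34.6 CPM in CD301b, 14.9, 25.5 and 21.8 CPM in SIRPa and 56.3, 41.2 and 54.3 CPM in XCR1 libraries. Bub1b, the checkpoint protein BubR1, had 80.3, 88.9 and 89.7 CPM in CD301b, 53.2, 76.1 and 66.3 CPM in SIRPa and 118, 115 and 118 CPM in XCR1 libraries. In both genes all XCR1 libraries lay above the others. Bub1, a related checkpoint kinase, had 28.7, 20.1 and 15.3 CPM in CD301b, 14.7, 17.8 and 21.8 CPM in SIRPa and 31.3, 32.7 and 50.3 CPM in XCR1 libraries. Mad2l1, which holds back anaphase until chromosomes are attached, had 20.5, 13 and 27.9 CPM in CD301b, 13.1, 18.2 and 16.1 CPM in SIRPa and 26.3, 33.6 and 43.2 CPM in XCR1 libraries. Cenpf, a large protein of the outer kinetochore, had 107, 88.4 and 108 CPM in CD301b, 64.0, 87.9 and 92.7 CPM in SIRPa and 169, 105 and 166 CPM in XCR1 libraries. For Cenpf, XCR1 replicate 2 was below the highest CD301b libraries, and for Mad2l1 CD301b replicate 4 was above XCR1 replicate 1. In CD301b and SIRPa, each against XCR1, the log2 fold changes were -1.05 ± 0.26 (adjusted p = 0.00483) and -1.29 ± 0.26 (adjusted p = 0.000863) for Ndc80, -0.44 ± 0.13 (adjusted p = 0.0214) and -0.84 ± 0.13 (adjusted p = 6.44e-05) for Bub1b, and -0.83 ± 0.25 (adjusted p = 0.0199) and -1.07 ± 0.25 (adjusted p = 0.00295) for Bub1. They were -0.75 ± 0.26 (adjusted p = 0.0440) and -1.12 ± 0.26 (adjusted p = 0.00299) for Mad2l1, and -0.54 ± 0.17 (adjusted p = 0.0342) and -0.85 ± 0.18 (adjusted p = 0.00145) for Cenpf. Cenpa, the histone H3 variant of centromeres, averaged 21.1 ± 4.52, 18.2 ± 2.13 and 24.6 ± 4.38 CPM in CD301b, SIRPa and XCR1 (SD, n = 3 each) and passed in no comparison. In CD301b against XCR1, calls were lost for Bub1b after removal of CD301b 1 or XCR1 1 or 3 (adjusted p = 0.0512 to 0.0687) and for Bub1 after removal of CD301b 3 or 4 or XCR1 3 (adjusted p = 0.0619 to 0.144). They were also lost there for Mad2l1 after removal of CD301b 1 or 3, SIRPa 3 or XCR1 2 or 3, with library totals as the only scaling, without robust estimation or in a fit on only the 6 libraries compared (adjusted p = 0.0506 to 0.201) and for Cenpf after removal of CD301b 1, 3 or 4 or XCR1 1 or 3 or with library totals as the only scaling (adjusted p = 0.0568 to 0.140).

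Motors and builders of the spindle included Kif23, which of all members had the smallest adjusted p in both comparisons with XCR1. Kif23 is the kinesin of the central spindle that guides the cleavage furrow (protein-coding, GRCm38 chromosome 9, 61915905 to 61946774, minus strand). It had 57.2, 47.1 and 45.8 CPM in CD301b, 40.2, 57.4 and 56.3 CPM in SIRPa and 134, 133 and 155 CPM in XCR1 libraries. All XCR1 libraries exceeded the highest other library by a factor of more than 2, and the CD301b and SIRPa libraries overlapped. Its log2 fold change was -1.49 ± 0.15 (adjusted p = 1.67e-07) in CD301b and -1.46 ± 0.15 (adjusted p = 2.36e-07) in SIRPa, each against XCR1. Kif11, the motor that pushes spindle poles apart, had 70.9, 92.3 and 90.0 CPM in CD301b, 58.9, 64.7 and 66.2 CPM in SIRPa and 122, 129 and 149.8 CPM in XCR1 libraries, with -0.66 ± 0.13 (adjusted p = 0.000716) and -1.08 ± 0.13 (adjusted p = 2.49e-06) in the same order. Kif15, a motor that helps Kif11, had 52.0, 49.3 and 56.6 CPM in CD301b, 40.7, 41.6 and 38.7 CPM in SIRPa and 75.3, 57.9 and 97.5 CPM in XCR1 libraries, with -0.55 ± 0.17 (adjusted p = 0.0211) and -0.93 ± 0.17 (adjusted p = 0.000250). Kif20a, a cytokinesis kinesin, had 46.6, 31.9 and 37.6 CPM in CD301b, 24.0, 37.5 and 28.1 CPM in SIRPa and 57.6, 71.5 and 76.3 CPM in XCR1 libraries, with -0.82 ± 0.19 (adjusted p = 0.00269) and -1.20 ± 0.19 (adjusted p = 6.29e-05). For each of these 3 motors SIRPa averaged lower than CD301b, and no library of either reached the XCR1 libraries. Of the exon bases of Kif20a, 29.3% lie opposite Cdc23, so its counts are less certain than those of Kif23, whose exons overlap no other gene. Tpx2, which activates Aurka on microtubules, had 65.3, 79.0 and 73.1 CPM in CD301b, 57.1, 78.7 and 68.6 CPM in SIRPa and 115, 107 and 133 CPM in XCR1 libraries, with -0.71 ± 0.14 (adjusted p = 0.000700) and -0.80 ± 0.14 (adjusted p = 0.000197). Nusap1, a microtubule bundler, had 48.3, 43.5 and 38.1 CPM in CD301b, 38.5, 48.8 and 42.0 CPM in SIRPa and 49.6, 80.6 and 86.8 CPM in XCR1 libraries, with -0.74 ± 0.19 (adjusted p = 0.00562) and -0.75 ± 0.19 (adjusted p = 0.00478). XCR1 replicate 1 lay only just above the highest CD301b and SIRPa libraries for Nusap1. Anln, the furrow scaffold anillin, had 29.4, 29.1 and 31.6 CPM in CD301b, 27.6, 24.4 and 26.0 CPM in SIRPa and 38.9, 36.8 and 46.8 CPM in XCR1 libraries, with -0.44 ± 0.17 (adjusted p = 0.0763) and -0.65 ± 0.17 (adjusted p = 0.00845). The call of Kif15 in CD301b against XCR1 was lost after removal of CD301b 3 or XCR1 3 (adjusted p = 0.0704 to 0.176), and that of Anln in SIRPa against XCR1 after removal of XCR1 3 (adjusted p = 0.0522). Anln also passed in CD301b against XCR1 with upper quartile scaling.

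The 3 members of mitotic ubiquitination were lower in both comparisons with XCR1. Cdc20, the activator of the anaphase-promoting complex, had 14.2, 11.4 and 15.0 CPM in CD301b, 10.4, 14.3 and 13.4 CPM in SIRPa and 28.5, 32.7 and 27.8 CPM in XCR1 libraries. Ube2c, the ubiquitin-conjugating enzyme of that complex, had 30.9, 33.8 and 40.8 CPM in CD301b, 23.3, 31.3 and 28.2 CPM in SIRPa and 55.9, 63.9 and 57.9 CPM in XCR1 libraries. Cdca3, a trigger of mitotic entry, had 16.6, 20.7 and 11.9 CPM in CD301b, 15.5, 19.6 and 14.0 CPM in SIRPa and 31.7, 34.9 and 33.8 CPM in XCR1 libraries. Each XCR1 library lay above all others in the 3 genes. In CD301b and SIRPa, each against XCR1, log2 fold changes were -1.13 ± 0.23 (adjusted p = 0.000990) and -1.22 ± 0.23 (adjusted p = 0.000430) for Cdc20, -0.75 ± 0.17 (adjusted p = 0.00248) and -1.10 ± 0.17 (adjusted p = 5.12e-05) for Ube2c, and -1.03 ± 0.23 (adjusted p = 0.00235) and -1.03 ± 0.23 (adjusted p = 0.00206) for Cdca3. These calls held in each of the 19 alternatives. Of the exon bases of Ube2c, 22.8% lie opposite Tnnc2.

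The D-type cyclins, which carry growth factor signals to the G1 kinases, did not follow the replication and mitotic genes. Ccnd2, cyclin D2 (protein-coding, GRCm38 chromosome 6, 127125162 to 127152193, minus strand), had 124, 113 and 169.8 CPM in CD301b, 154, 118 and 122 CPM in SIRPa and 22.2, 33.8 and 56.0 CPM in XCR1 libraries. Every CD301b and SIRPa library exceeded the highest XCR1 library by a factor of more than 2, and the XCR1 libraries differed among themselves by about as much, with the highest value in replicate 3. Its log2 fold change was 1.86 ± 0.33 (adjusted p = 0.00420) in CD301b and 1.81 ± 0.33 (adjusted p = 0.00432) in SIRPa, each against XCR1, and 0.04 ± 0.32 (adjusted p = 0.987) in CD301b against SIRPa. Ccnd3, cyclin D3 (protein-coding, GRCm38 chromosome 17, 47505051 to 47599691, plus strand), had 129, 140.1 and 164 CPM in CD301b, 84.1, 84.0 and 105 CPM in SIRPa and 102, 103 and 104 CPM in XCR1 libraries. All CD301b libraries lay above all others, by 0.66 ± 0.13 (adjusted p = 0.00284) against SIRPa and 0.49 ± 0.13 (adjusted p = 0.00679) against XCR1, while SIRPa against XCR1 had -0.18 ± 0.13 (adjusted p = 0.368). Ccnd1, cyclin D1, had 390.4, 369 and 337 CPM in CD301b, 359.8, 331 and 352 CPM in SIRPa and 341, 293 and 232 CPM in XCR1 libraries, with 0.34 ± 0.12 (adjusted p = 0.0434) in CD301b and 0.27 ± 0.12 (adjusted p = 0.114) in SIRPa, each against XCR1. XCR1 replicate 3 was the lowest library for Ccnd1, and XCR1 replicate 1 lay inside the range of the others. The call of Ccnd3 in CD301b against SIRPa held in each of the 19 alternatives, with adjusted p of at most 0.0286. The call of Ccnd1 in CD301b against XCR1 was lost after removal of CD301b 1 or 3, SIRPa 1, 2 or 3 or XCR1 2 or 3, with RLE scaling, with upper quartile scaling, without robust estimation or in a fit on only the 6 libraries compared (adjusted p = 0.0529 to 0.222). In SIRPa against XCR1, Ccnd1 passed without XCR1 replicate 1 and with library totals as the only scaling, which made 2 higher members there. Of the exon bases of Ccnd1, 23.4% lie opposite LTO1.

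Of the other G1 members, Cdk4 passed in 1 comparison and the rest in none. Cdk4, the kinase of the D-type cyclins, had 47.2, 47.5 and 35.8 CPM in CD301b, 46.2, 50.6 and 56.1 CPM in SIRPa and 55.2, 55.6 and 79.3 CPM in XCR1 libraries, and was lower in CD301b than in XCR1, at -0.54 ± 0.17 (adjusted p = 0.0264), with -0.31 ± 0.17 (adjusted p = 0.215) in SIRPa. Its call was lost after removal of CD301b 4 or XCR1 3 (adjusted p = 0.0956 to 0.186), and 19.7% of its exon bases lie opposite Tspan31. The E-type cyclins Ccne1 and Ccne2, their kinase Cdk2, and E2f1, the activating transcription factor of S phase, passed in no comparison by edgeR with TMM on all libraries. Ccne2 passed in CD301b against XCR1 with upper quartile scaling and without XCR1 replicate 1, with an adjusted p down to 0.0348. Ccne1 averaged 7.62 ± 2.64, 6.76 ± 0.608 and 12.5 ± 3.39 CPM in CD301b, SIRPa and XCR1, and Ccne2 9.32 ± 1.79, 10.8 ± 2.35 and 16.2 ± 4.16 CPM (SD, n = 3 each). Cdk2 averaged 14.7 ± 4.30, 21.2 ± 6.12 and 22.4 ± 1.73 CPM, and E2f1 11.6 ± 3.40, 12.7 ± 3.76 and 16.4 ± 5.90 CPM. Their log2 fold changes against XCR1 lay between -0.89 ± 0.35 for Ccne1 and -0.08 ± 0.26 for Cdk2, both in SIRPa. All 8 differences of these 4 genes against XCR1 were below 0, with SEs of 0.26 to 0.35.

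Of the CDK inhibitors, Cdkn1a, the p53 target p21, had 132, 106 and 109 CPM in CD301b, 89.5, 83.7 and 68.8 CPM in SIRPa and 69, 96.8 and 66.5 CPM in XCR1 libraries. Every CD301b library lay above every SIRPa and XCR1 library. Its log2 fold change was 0.58 ± 0.15 (adjusted p = 0.00772) in CD301b against XCR1, 0.52 ± 0.15 (adjusted p = 0.0580) in CD301b against SIRPa and 0.06 ± 0.15 (adjusted p = 0.853) in SIRPa against XCR1. The call against XCR1 was lost after removal of CD301b 1 (adjusted p = 0.0602), which left 2 higher members, Ccnd2 and Ccnd3. In CD301b against SIRPa it passed in 6 of 19 alternatives, among them fits without XCR1 replicate 2 or 3, without the count filter, with limma-voom and on only the 6 libraries compared. Cdkn2c, the inhibitor p18 of Cdk4 and Cdk6, had 8.67, 16.4 and 10.8 CPM in CD301b, 7.80, 13.7 and 9.13 CPM in SIRPa and 14.8, 12.7 and 16.5 CPM in XCR1 libraries and passed in no comparison.

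**Figure D4:**
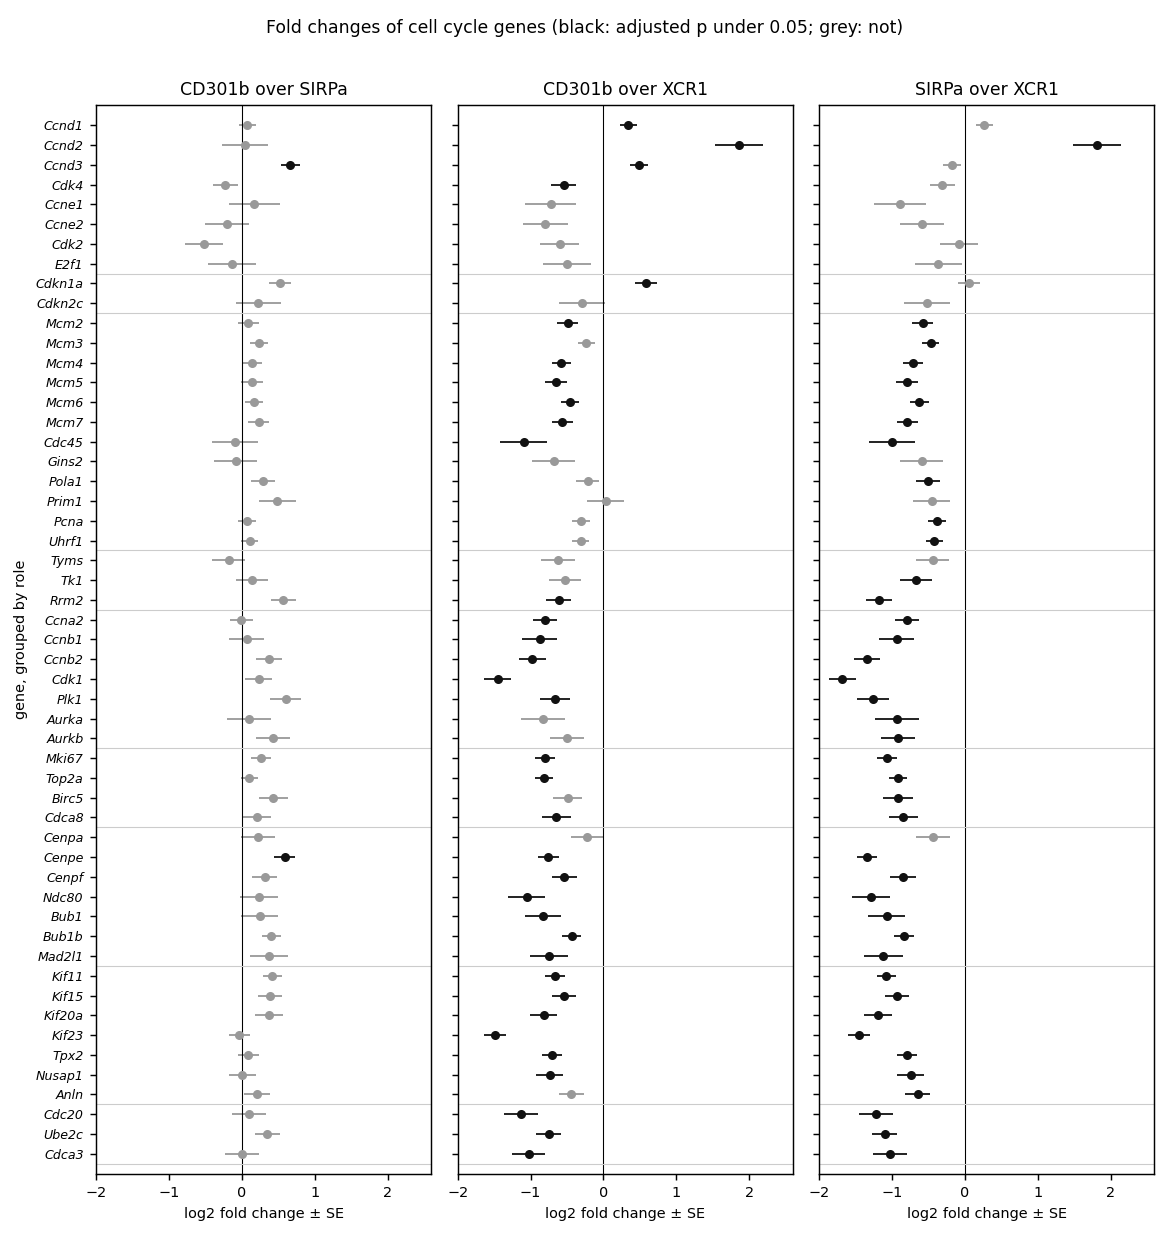
Log2 fold change ± SE of each member in CD301b over SIRPa, CD301b over XCR1 and SIRPa over XCR1, with genes grouped by role. Black points have an adjusted p under 0.05 and grey points do not; most black points in the panels against XCR1 lie left of 0, with Ccnd2 the farthest to the right at 1.86 ± 0.33 and 1.81 ± 0.33.

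Between CD301b and SIRPa the called members were Ccnd3 and Cenpe. Cenpe was higher in CD301b by 0.59 ± 0.14 (adjusted p = 0.0189), and the groups did not overlap. Its call was lost after removal of CD301b 1 or 4 or SIRPa 1, 2 or 3 (adjusted p = 0.0534 to 0.0897), and 1 higher member, Ccnd3, was then left without CD301b replicate 4 or without any 1 of the SIRPa libraries. In 12 members every CD301b library was above every SIRPa library and in 0 below, against 10.7% and 11.4% of all genes. Among uncalled members, Rrm2 had 0.57 ± 0.17 (adjusted p = 0.0743), Plk1 0.60 ± 0.21 (adjusted p = 0.148), Kif11 0.42 ± 0.13 (adjusted p = 0.0903) and Bub1b 0.40 ± 0.13 (adjusted p = 0.109). Rrm2 passed without the count filter and Kif11 without CD301b replicate 1. SIRPa replicate 1 was the lowest library for many members, among them Aurka, Aurkb, Birc5 and Ccnb1, and without it the members' median log2 fold change was 0.12.

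Per exon length, the members spanned a wide range of levels within a population. On CPM per kilobase of exon, Mki67 stood at 49.2 in CD301b, 41.0 in SIRPa and 85.7 in XCR1, the highest value of any member in XCR1. Ccnd1 was the highest member in CD301b and SIRPa, at 77.6 and 73.8 CPM per kilobase, with 61.3 in XCR1. Among D-type cyclins the order in CD301b was Ccnd1, then Ccnd3 at 16.4 and Ccnd2 at 14.4 CPM per kilobase, while in SIRPa Ccnd2, at 14.0, stood above Ccnd3, at 10.4. In XCR1, Ccnd3 stood at 11.7 and Ccnd2 at 3.97 CPM per kilobase. Within the MCM ring, whose subunits act in equal numbers, levels in XCR1 ran from 17.3 for Mcm2 to 55.3 CPM per kilobase for Mcm3, with Mcm3 the highest and Mcm2 the lowest in CD301b and SIRPa as well. The divisor was every exon base annotated for a gene, 6956 for Mcm2 and 3589 to 4666 for the other MCM genes. In CPM, Mcm2 averaged 120 in XCR1, above Mcm5 at 114, so the order depends on the length used. Values per kilobase depend on the exons annotated in GENCODE M21, since no source used here names the annotation behind the counts.

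Genes of the same pathway outside the panel were counted in 3 further lists. Of 64 other mitotic genes, 25 (39.1%) were lower in CD301b and 38 (59.4%) in SIRPa than in XCR1, and the others did not pass. Their median log2 fold changes were -0.65 and -0.81. Of all genes tested, 9.12% and 10.7% were lower. Foxm1, the transcription factor that drives mitotic genes, averaged 30.5 ± 0.955 in CD301b, 19.8 ± 2.16 in SIRPa and 54.0 ± 4.14 CPM in XCR1 (SD, n = 3 each). It was lower in SIRPa than in XCR1, at -1.45 ± 0.17 (adjusted p = 1.46e-06), and higher in CD301b than in SIRPa, at 0.63 ± 0.17 (adjusted p = 0.0394). Racgap1, the partner of Kif23 in the central spindle, was the other mitotic gene higher in CD301b than in SIRPa, at 0.52 ± 0.13 (adjusted p = 0.0209). With Foxm1, that made 2 of 64 higher (3.12%), near the 2.2% of all genes tested. Of 19 alternatives, 12 lost the Foxm1 call in CD301b against SIRPa, limma-voom and every removal of a CD301b or SIRPa library among them, and 5 lost that of Racgap1, by removal of CD301b 1 or 3 or any SIRPa library. Cit, the cytokinesis kinase, and Dlgap5, a spindle protein, were lower in CD301b than in XCR1, at -1.13 ± 0.19 (adjusted p = 0.000117) and -1.02 ± 0.19 (adjusted p = 0.000342), and so was Hmmr, a microtubule-binding protein, at -0.85 ± 0.16 (adjusted p = 0.000388). In SIRPa, Knl1, a kinetochore scaffold, had -1.26 ± 0.17 (adjusted p = 9.91e-06) and Dlgap5 -1.20 ± 0.19 (adjusted p = 5.68e-05) against XCR1.

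Of 43 other S phase genes, 12 (27.9%) were lower in CD301b and 14 (32.6%) in SIRPa than in XCR1, and the others did not pass. Of all genes tested, 9.12% and 10.7% were lower. The list's median log2 fold changes were -0.49 and -0.65. Hells, a chromatin remodeller, averaged 46.3 ± 5.48 in CD301b, 36.6 ± 3.97 in SIRPa and 83.2 ± 5.93 CPM in XCR1 (SD, n = 3 each), with -0.85 ± 0.15 (adjusted p = 0.000210) and -1.19 ± 0.15 (adjusted p = 3.71e-06) in CD301b and SIRPa against XCR1. Dut, which removes dUTP, had -0.94 ± 0.19 (adjusted p = 0.000916) and -1.42 ± 0.19 (adjusted p = 9.33e-06), and Lig1, the ligase that joins Okazaki fragments, -0.73 ± 0.17 (adjusted p = 0.00287) and -1.0 ± 0.17 (adjusted p = 0.000148). None of the 43 passed in CD301b against SIRPa by edgeR, where 6 had an unadjusted p under 0.05, against 14.4% of all genes tested. DESeq2 called 0 higher and 0 lower, and limma-voom 0 higher and 0 lower. The one with the most counts, Dnmt1, the maintenance methyltransferase, had -0.08 ± 0.15 (adjusted p = 0.929) there, with 193, 238 and 159 CPM in CD301b, 182, 238 and 203 CPM in SIRPa and 265, 222 and 308 CPM in XCR1 libraries.

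Of 30 other G1 regulators tested, 3 were higher (10%) and 4 lower (13.3%) in CD301b than in XCR1, where all genes had 13.5% and 9.12%. In SIRPa against XCR1 the counts were also 3 and 4, where all genes had 13.9% and 10.7%, so both lie near the share of all genes. In CD301b against SIRPa, 1 was higher (3.33%) and 0 lower, where all genes had 2.2% and 2.08%. Single genes are given as values. Rb1, the retinoblastoma protein that restrains E2F, averaged 90.1 ± 14.9 in CD301b, 87.5 ± 7.24 in SIRPa and 55.5 ± 13.6 CPM in XCR1 (SD, n = 3 each), higher by 0.70 ± 0.17 (adjusted p = 0.00396) and 0.66 ± 0.17 (adjusted p = 0.00583) against XCR1. Skp2, which marks the inhibitor p27 for destruction, was higher by 1.12 ± 0.31 (adjusted p = 0.0118) and 0.99 ± 0.31 (adjusted p = 0.0235), and Ccng1, a p53 target, by 0.62 ± 0.16 (adjusted p = 0.00639) and 0.46 ± 0.16 (adjusted p = 0.0369). Btg2, an antiproliferative gene, averaged 179 ± 10.4 in CD301b, 126 ± 16.3 in SIRPa and 252 ± 28.2 CPM in XCR1. The log2 fold change was -0.49 ± 0.12 (adjusted p = 0.00362) in CD301b and -1.0 ± 0.12 (adjusted p = 1.38e-06) in SIRPa, each against XCR1, and 0.51 ± 0.12 (adjusted p = 0.0132) in CD301b against SIRPa, where the call was lost after removal of SIRPa 2 or 3. E2f8, a repressor of the E2F family, was lower in both, at -0.71 ± 0.21 (adjusted p = 0.0200) in CD301b and -1.06 ± 0.22 (adjusted p = 0.000878) in SIRPa against XCR1. E2f3, an activator of the family, was lower in CD301b than in XCR1, at -1.13 ± 0.29 (adjusted p = 0.00598). The phosphatase Cdc25a, which activates Cdk2, was lower in SIRPa than in XCR1, at -0.91 ± 0.26 (adjusted p = 0.0118). Against XCR1 in CD301b, removal of 1 library ended the calls of Ccng1 (CD301b 1), E2f8 (CD301b 1 or XCR1 2) and Skp2 (CD301b 4 or XCR1 2). In SIRPa, it ended those of Ccng1 (CD301b 4, SIRPa 1 or 3, or XCR1 1 or 3) and Skp2 (any SIRPa library, or XCR1 1 or 2).

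**Figure D5:**
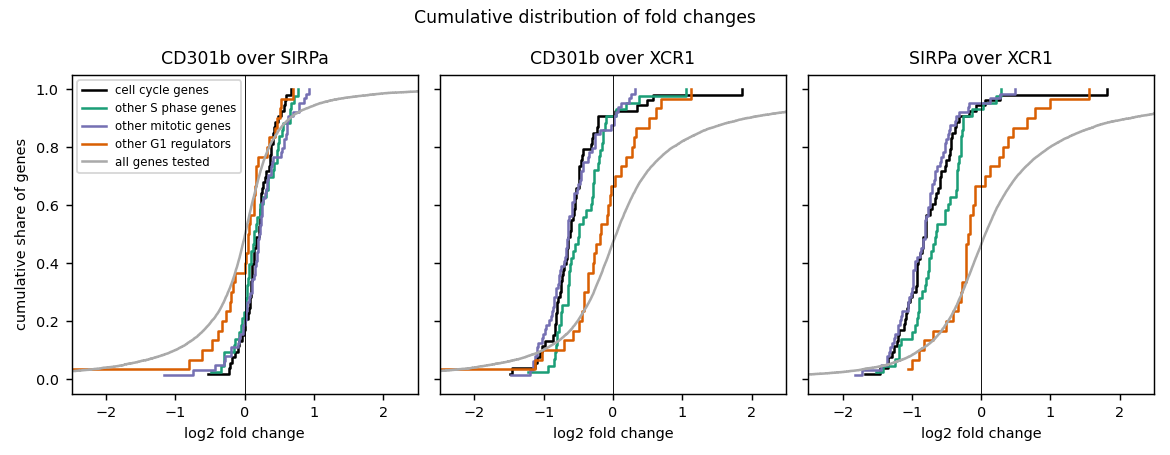
Cumulative share of genes (y axis) by log2 fold change (x axis) for the 53 members, the 3 further lists and all 15417 genes tested, in the 3 comparisons. Against XCR1, the curves of the members, the other mitotic and the other S phase genes lie left of that of all genes, with member medians of -0.62 and -0.80.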

How the data were processed

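Thymi were digested with collagenase D and dendritic cells were stained and sorted, per the labels' protocols, and libraries were made from total RNA with a stranded Clontech kit for small inputs. Per the submitters' processing notes, the tools were edgeR, the featureCounts program of Subread, SAMtools, HISAT2, Trimmomatic and FastQC, and the build was mm10. Tool versions, the annotation and whether counting used strand are given in no source used here. The deposited count table holds the authors' raw read counts per gene symbol. Its 24 symbols turned into dates (0.125 to 0.187% of a library) were left out. The authors' deposited log2 CPM table was compared alone: for the 53 members it differed from log2 CPM recomputed here by a constant of 0.117 to 0.123 per library and at most 0.0101 around it.

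Genes passing filterByExpr (minimum count 10), 15417 in all, were tested with edgeR 4.0.16 in R 4.3.3 (TMM, robust quasi-likelihood F test, two-sided) in 1 fit over 9 libraries and 3 populations, with Benjamini-Hochberg adjustment over all genes of a comparison. All 53 members passed the filter. Fold changes are log2 with SE from the fit. The fit was tested on simulated data with known changes, drawn with the spread estimated from these libraries. Such data hold no shared animals or other cell types, so they cannot show the effect of either. Alternatives used DESeq2 1.42.0, limma 3.58.1 and other settings. Nothing states separate animals per library, so the spread behind each p-value is that between libraries and may be technical. The design text counts 3 mice for 9 libraries, so populations may share animals, while the fit treated all 9 libraries as independent. No pair of replicates agreed within counting noise. Members and lists were chosen with earlier results of these data known. Library values are given for members called in at least 1 comparison (44 of 53); from each further list, called genes are named by lowest adjusted p, at most 3 per comparison and direction, or the uncalled gene with the highest CPM where none was called. Locations and exon lengths are from GENCODE M21 (GRCm38), under which 18 members have exon bases opposite another gene. Reads shared with pseudogene copies may have been split.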

Additional observations from a re-analysis of the deposited data

How the results depend on the processing

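The direction of every called member and named list gene was the same under the 19 alternatives, and 130 of their 1976 alternative values lost the call. The count of lower members stayed within 1.5 times under every alternative in SIRPa against XCR1 (34 to 39), and in CD301b against XCR1 except without XCR1 replicate 3; the range with 1 library left out was 19 to 32. Higher members in CD301b against XCR1 numbered 2 to 4 with 1 library left out and 2 with the replicate block. In SIRPa against XCR1 they numbered 1 to 2 with 1 library left out, 2 with library totals only and 2 with the replicate block. In CD301b against SIRPa they numbered 4 without the count filter and 1 to 3 with 1 library left out, while 0 were lower in each of the 19 alternatives. All genes called there numbered 328 to 813 with 1 library left out, with 328 without SIRPa replicate 1, 418 without SIRPa replicate 3 and 438 without CD301b replicate 3. They numbered 2921 to 3249 in CD301b against XCR1 and 3015 to 4042 in SIRPa against XCR1. Such fits hold fewer libraries, and the causes of the changes in count were not tested. Without XCR1 replicate 1, 2 or 3, CD301b against SIRPa had 685, 718 and 813 genes called, against 660 with all libraries. Same-numbered libraries correlated at 0.00112 to 0.0344 in their deviations from the population means, and libraries of unlike number at -0.0627 to 0.0441. Not every library correlated best with its own number. The numbers were not taken as pairs, though such weak values cannot show that pairing is absent. The replicate block gave 660, 2913 and 4034 genes called in the 3 comparisons, and 25 and 39 lower members against XCR1. Number 4 occurs only in CD301b and number 2 only in SIRPa and XCR1. The block thus fits CD301b replicate 4 by itself, and that library adds nothing to these comparisons. With the block, CD301b against XCR1 no longer called Ccnd2 (adjusted p = 0.0972), Ccnd3 (adjusted p = 0.0644), Cdk4, Cdc45, Plk1, Cdca8, Cenpf, Bub1, Bub1b or Nusap1. CD301b against SIRPa no longer called Cenpe. Each member had at least 114 counts in every library. Ccne1, a low member, had 134 to 329 counts per library and an SE of 0.35 in CD301b against XCR1. The part of depth in such SEs was not tested.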
